A study of Rattus norvegicus with 24 samples.

Results

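The array probes R344, R017, R237, R589, R418, R572, R013 and R204 gave higher mean intensities in rat left ventricle 7 days after myocardial infarction (MI) than in every other condition measured. These are 8 of the 1185 probes in the deposited table, and they were picked from results of these arrays: the difference between MI and sham at day 7 chose them, so that difference is described here and not tested. By the p-value of that difference the 8 probes ranked between 3 and 12 among 486 probes with enough values. The next probe outside the set, R542, ranked 13, with a log2 difference of 1.07 (SE 0.32), and the last one inside, R418, had 0.92 (SE 0.25). The probes of ranks 1, 2, 6 and 8, which are RG433, R272, R642 and RG316, were not members. The deposited table gives no gene for any of these IDs, so the probes are described by ID and nothing is said of their function.

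The series holds 24 arrays, 1 per sample, in 4 groups of 6: MI at day 1, sham at day 1, MI at day 7 and sham at day 7. Each sample was total RNA from the left ventricle and septum of an operated rat. Strain, sex and age of the rats are unknown from the labels. The infarct zone was left out of the MI samples, whereas sham samples had no such zone to leave out, so operation and part of the ventricle sampled cannot be told apart. For the sham arrays titled 1 day the free-text note gives 7 days instead; the title, with which the keywords match, was followed. Whether every array came from its own animal is not stated in the labels, and the spread between arrays may be partly technical.

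A myocardial infarction follows the blocking of a coronary artery and kills the heart muscle that the artery fed. An early phase of inflammation clears the dead tissue, and a later phase builds a collagen scar while the surviving muscle takes on more load and enlarges. Muscle away from the infarct is known to change its expression of genes for contraction, metabolism and extracellular matrix during this remodelling. In RNA from whole tissue, fewer cells of a type and less RNA per cell cannot be told apart.

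The table left most cells blank without a stated reason, and a blank was read neither as low nor as absent. The arrays listed 141 to 684 probes each. The shortest lists, of 141 to 296 probes, came from 6 day 1 arrays (3 MI and 3 sham, titled A507 to A512), which are called sparse arrays; the other 18 listed at least 404. Intensities are linear, with a median of 91.1 to 107.5 on each array. The markers of heart muscle could not be checked, because no probe has a name.

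**Figure D1:**
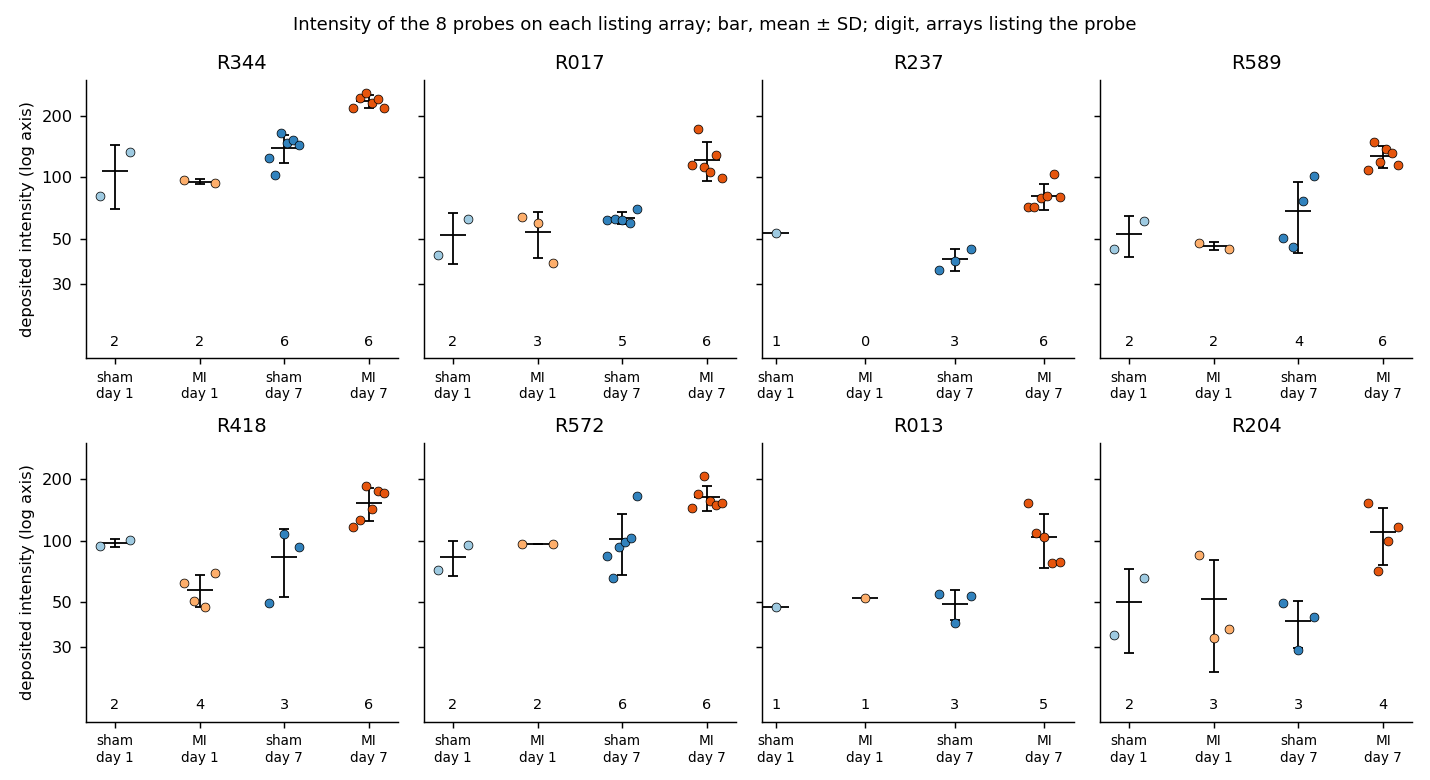
Deposited intensity (log axis) of each of the 8 probes on every array that listed it, by group; points are arrays, bars are the mean ± SD, and the digit under each group is the number of arrays listing the probe out of 6. Every panel has its highest mean in MI at day 7, and only in R572 did a day 7 sham array reach into the MI range, at 165 against a lowest MI value of 144.

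At day 7 all 8 probes had a higher mean in MI than in sham, by 1.66-fold to 2.69-fold as ratios of geometric means. Their median log2 difference was 0.94, beside 0.052 over the 486 probes with at least 3 listed values in each group. In the limma fit 7 of those 486 probes were called higher at an adjusted p under 0.05 (1.44%), and 4 of the 8, R017, R344, R237 and R589, were among them. Every MI value lay above every sham value for 7 of the 8, and this held for 22 of the 486 probes (4.53%). The choice of the probes fixes these counts, and nothing is read from them.

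**Figure D2:**
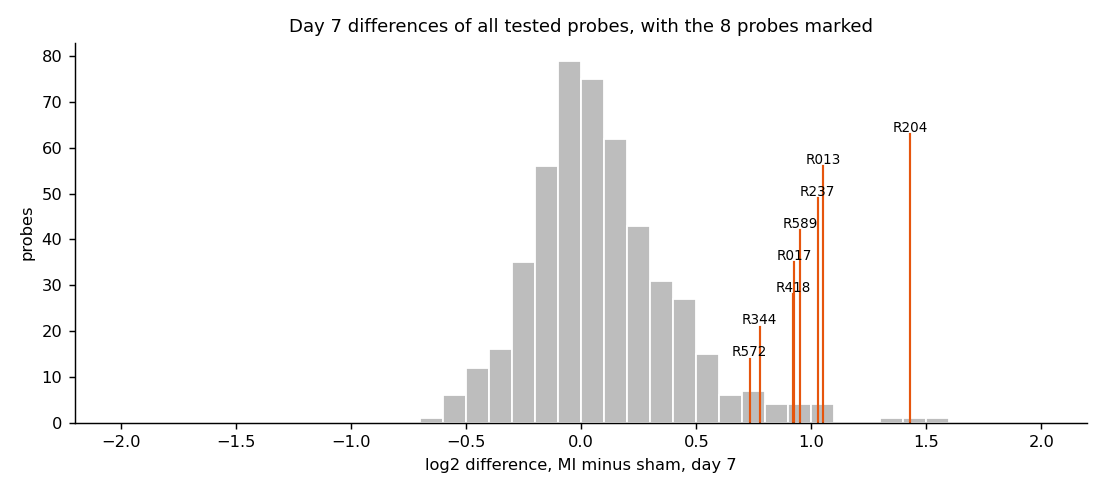
Distribution of the log2 difference of MI minus sham at day 7 over the 486 probes with at least 3 listed values in each group (grey bars, number of probes), with the 8 probes marked by vertical lines whose heights only separate the names. The 8 lines lie between 0.73 and 1.43 in the upper tail, as the way they were chosen requires.

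Probes R344 and R572 were listed on all 12 arrays of day 7. R344 ran from 217 to 259.6 in MI, with a median of 236.9, and from 103 to 164 in sham, with a median of 145. The ranges did not overlap, and the MI arrays were close to one another. The MI mean of 236 ± 16.3 was 1.71-fold the sham mean of 139 ± 22.0 (SD, n = 6 arrays each) on the scale of geometric means, with a log2 difference of 0.78 (SE 0.17).

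R572 ran from 144 to 206 in day 7 MI, with a median of 155, and from 65.3 to 165 in sham, with a median of 95.6. A single sham array, replicate 6, gave the 165 and lay above 4 of the 6 MI arrays, while the other 5 sham values ended at 103. With all arrays the MI mean was 162.9 ± 22.7 and the sham mean 101.5 ± 33.9 (SD over 6 arrays), a fold of 1.66. Without that sham array it was 1.85, and the ranges no longer overlapped.

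Probes R017, R237 and R589 were listed on all 6 day 7 MI arrays and on some of the sham arrays. R017 gave 62.0, 62.5, 61.7, 59.9 and 70.2 on the 5 sham arrays that listed it, and ran from 99.6 to 171 in MI with a median of 113. Sham values were tightly grouped and MI values spread upward, with no overlap. The means were 63.3 ± 4.01 (SD, n = 5) and 121.9 ± 26.0 (SD, n = 6), a 1.90-fold difference (log2 0.92, SE 0.20).

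R237 gave 35.2, 39.0 and 44.8 on 3 sham arrays and ran from 71.4 to 103.5 in MI, with a median of 79.7. Even the highest sham value was well short of the lowest MI value. The fold was 2.04 (log2 1.03, SE 0.22), with a mean of 39.7 ± 4.81 (SD, n = 3) in sham and 81.1 ± 11.7 (SD, n = 6) in MI.

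R589 gave 50.6, 45.6, 76.4 and 102 on 4 sham arrays and ran from 108 to 148 in MI, with a median of 125. The groups just failed to overlap, because sham replicate 6 gave the 102. The fold was 1.93 (log2 0.95, SE 0.23; 68.6 ± 26.0 with n = 4 in sham and 126.5 ± 15.2 with n = 6 in MI, SD). Without sham replicate 6 it was 2.24.

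R418 was listed on 3 sham arrays of day 7, at 49.6, 108 and 93.0, and on all 6 MI arrays, from 116 to 185 with a median of 157. The sham values were scattered and the highest of them came close to the lowest MI value. The fold was 1.89 (log2 0.92, SE 0.25; 83.6 ± 30.3 with n = 3 in sham and 152.4 ± 28.1 with n = 6 in MI, SD). Without sham replicate 2, which gave the 49.6, the log2 difference was 0.58.

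On the day 7 arrays, probes R013 and R204 were listed least often, and they varied most between MI arrays. R013 gave 54.7, 39.6 and 53.4 in sham and 153.2, 108, 105, 77.3 and 78.4 in MI at day 7. Its 5 MI values were widely spread but all stood above the 3 sham values. The fold was 2.07 (log2 1.05, SE 0.27; 49.2 ± 8.34 in sham and 104.4 ± 30.9 in MI, SD).

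R204 gave 49.7, 29.1 and 42.2 on 3 sham arrays and 152.6, 70.6, 100 and 117 on 4 MI arrays. The MI values again all lay above sham, with a coefficient of variation of 31.1%. The fold was 2.69 (log2 1.43, SE 0.36; 40.4 ± 10.4 in sham and 110.1 ± 34.2 in MI, SD), the highest of the 8 and resting on the fewest arrays. The value of MI replicate 4 was exactly 100, as were 53 of the 10420 listed values outside probe R371, which was 100 on all 24 arrays. Without it the fold of R204 was 2.74.

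No single MI array supplied the high values. Replicate 3 was the highest day 7 MI array for R344, R418 and R572, replicate 2 for R017 and R589, replicate 1 for R013 and R204, and replicate 5 for R237. On the sham side, replicate 6 gave the highest day 7 value for 4 of the 8 probes, R017, R237, R589 and R572. It was also the array that listed the most probes of the series, 684, and the part of this in the sham levels was not tested.

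The day 7 titles carry the numbers A501 to A504 and A513 to A520, and in each 4 numbers 2 sham arrays are followed by 2 MI arrays. The unbroken numbers A513 to A520 were cut in the middle, where that order starts again, which gave 3 sets of 4 arrays; whether these sets were handled together is not stated in the labels. A difference within a set could be taken for 20 of the 24 pairs of probe and set. These are the values by which the probes were chosen, so a positive sign is favoured by that choice, and only the sizes are described. R344 was higher in MI by 1.03, 0.66 and 0.63 on the log2 scale in A501 to A504, A513 to A516 and A517 to A520. R017 was higher by 1.17, 0.81 and 0.80 in the same order. R589 and R572 varied more, with 1.32, 1.12 and 0.27 for R589 and 1.07, 0.91 and 0.21 for R572. The low values of both came from the set that holds sham replicate 6. R237 and R013 had no sham value in A501 to A504, where neither could be compared. In the other sets, in order, R237 was higher by 1.19 and 1.12 and R013 by 1.19 and 0.54. R418 was higher by 1.28 and 0.70 in the A501 and A513 sets and had no sham value in the A517 set, and R204 by 1.01 and 1.74 in the A513 and A517 sets. With A513 to A520 kept whole, a choice made after seeing the data, the differences there ran from 0.56 for R572 to 1.46 for R204.

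**Figure D3:**
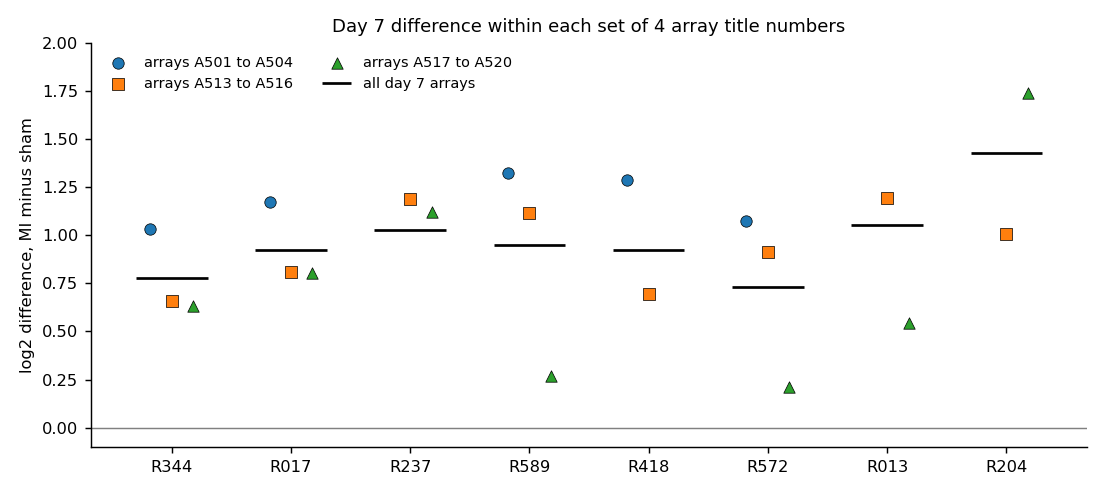
Log2 difference of MI minus sham at day 7 for each of the 8 probes within each set of 4 array title numbers (symbols) and over all day 7 arrays (horizontal lines). Every symbol lies above 0, from 0.21 for R572 in A517 to A520 to 1.74 for R204 in the same set; missing symbols are sets in which an operation had no listed value.

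Over the 28 pairs of probes, Pearson r of log2 intensity ran from 0.47 to 0.93 with a median of 0.82, on the 5 to 12 day 7 arrays that listed both. These arrays share the MI against sham difference by which the probes were chosen. Within the 6 MI arrays alone, r could be computed for the 15 pairs of the 6 probes listed on all of them, and ran from -0.40 (R017 with R418) to 0.83 (R344 with R572), with a median of 0.21; over all day 7 arrays the same 15 pairs had a median of 0.84. Within the 6 MI arrays R017 and R589 had 0.68 and R237 and R418 had 0.66. An MI array with a high value for a given probe could therefore be low for another.

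Among the other 206 probes listed on all 12 day 7 arrays, those most like the mean profile of the 8 over these arrays were R040 (Pearson r = 0.87), RG316 (r = 0.86), RG433 (r = 0.85) and R495 (r = 0.84), against a median r of 0.24 over the 206. R040 went from a sham mean of 138 ± 25.9 to an MI mean of 179.8 ± 13.5 (SD over 6 arrays), 1.32-fold. R495 went from 120.5 ± 32.3 to 171 ± 20.2, 1.45-fold. RG316 and RG433 were 1.85-fold and 2.51-fold higher in MI at day 7. At day 1 RG316 was also higher, at 384 ± 77.7 (n = 6) in MI and 198 ± 66.6 (n = 6) in sham. RG433 was at 121 ± 15.9 (n = 5) in MI and 70.5 ± 20.1 (n = 3) in sham on that day. R040 was closer, at 121 ± 58.8 (n = 4) and 108 ± 29.3 (n = 3), as was R495, at 109 ± 42.8 (n = 6) and 101 ± 58.2 (n = 4). Taken probe by probe, the most like candidate was RG316 for R344 (r = 0.88, 12 arrays) and R204 (r = 0.90, 7 arrays), and RG433 for R017 (r = 0.94, 11 arrays) and R013 (r = 0.93, 8 arrays). It was R040 for R572 (r = 0.94, 12 arrays), R225 for R237 (r = 0.89, 9 arrays), R365 for R589 (r = 0.88, 10 arrays) and RG342 for R418 (r = 0.96, 9 arrays). The arrays used span the MI against sham difference by which the 8 were chosen. With few arrays the highest of 206 correlations is also high in any case, and these are given as a description.

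**Figure D4:**
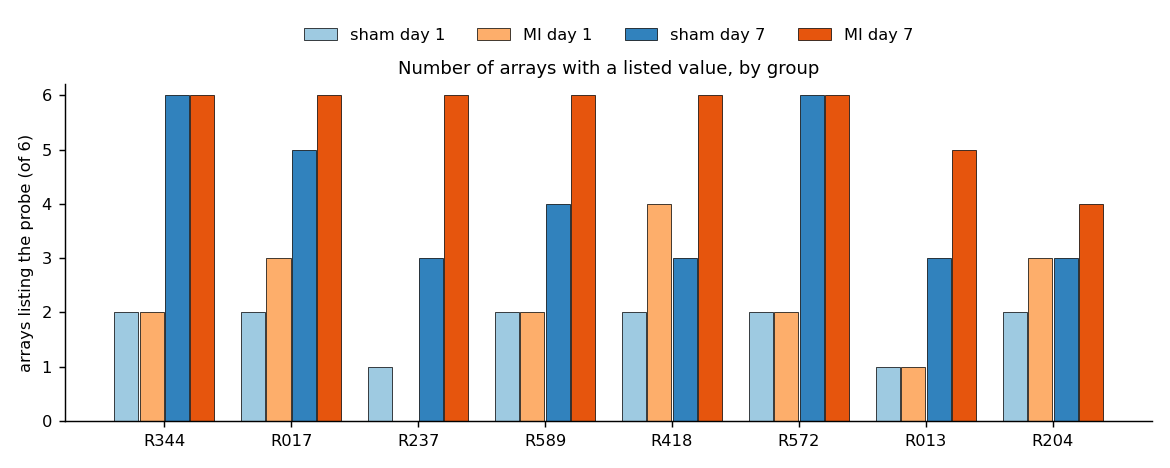
Number of arrays, out of 6 in each group, that listed a value for each of the 8 probes. R344 and R572 were listed on every day 7 array, and R237 was listed on all 6 MI arrays at day 7 but on 0 MI arrays at day 1.

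How often the probes were listed also differed between the groups. MI arrays of day 7 listed 45 of the 48 possible values (93.8%), sham arrays of day 7 listed 33 (68.8%), MI arrays of day 1 listed 17 (35.4%) and sham arrays of day 1 listed 14 (29.2%). Over all 1185 probes the shares were 46.6%, 42.5%, 30.7% and 27.1% in the same order. The choice of the probes favours high day 7 shares, because a difference between MI and sham at day 7 needs values in both groups. The sparse arrays listed only 3 of 48 values of the 8 probes: R418 on MI replicates 2 and 4 and R204 on MI replicate 4. The probes were listed on a median of 4 day 1 arrays, and the 494 probes with a value on at least 4 day 7 MI arrays on a median of 6. On the day 1 arrays that were not sparse the medians were 4 and 5, and the sparse arrays thus held part of that gap.

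The difference of MI against sham at day 1 is taken from no day 7 array. Its SE, p-value and interval use a spread estimated on all 24 arrays, those of day 7 among them. The day 1 values may also have served to set the 8 apart from probes higher in MI on both days. A day 1 difference that does not pass is therefore no independent evidence. The comparison could be tested for none of the 8 with at least 3 listed values in each group, where limma called 0 of 283 probes (0.0% higher and 0.0% lower; 22 had an unadjusted p under 0.05). With 2 values in each group, 6 of the 8 were among 421 tested probes. Of these 421, limma called 0 (0.0%; 35 at an unadjusted p under 0.05), so 0 of the 6 passed. R572 and R017 had a higher mean log2 value in MI and R344, R589, R418 and R204 a lower one, with a median difference of -0.072 beside 0.098 over the 421 probes.

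R344 was at 96.8 and 93.5 in MI and at 80.7 and 132.8 in sham at day 1, so the MI values lay between the sham values. R572 was at 96.0 and 96.1 in MI and at 71.7 and 95.2 in sham, with the higher sham value almost equal to the MI values. R589 was at 47.4 and 44.5 in MI and at 44.4 and 61.4 in sham, again with the MI values inside the sham range. The log2 differences of MI minus sham had 95% intervals from limma of -0.77 to 0.52 for R344, -0.52 to 0.95 for R572 and -0.95 to 0.58 for R589. Day 1 differences anywhere inside these intervals were not excluded by these few values. The intervals are not limits of detection, and a difference outside them could still fail the test over all probes.

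R017 was at 64.0, 59.9 and 38.2 in day 1 MI and at 41.8 and 62.5 in sham. R204 was at 84.9, 33.3 and 36.8 in MI and at 34.6 and 66.0 in sham. Both probes had wide and overlapping groups, with intervals of the log2 difference from -0.59 to 0.68 for R017 and -0.95 to 0.90 for R204. The values of R017 within consecutive title numbers at day 1 differed in sign, at 0.62 in A505 to A512 (1 array of each operation) and -0.38 in A535 to A538 (2 MI and 1 sham). R013 had 1 value in each group, 52.2 in MI and 47.1 in sham, and R237 had a single value, 53.5 in sham. Neither probe could be compared with any error.

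R418 was lower in MI than in sham on every listing array of day 1, the opposite of its order at day 7. It was at 61.8, 50.6, 47.5 and 69.7 in MI and at 94.0 and 100.5 in sham. The groups did not overlap, but the difference did not pass the test over all probes (log2 -0.78, SE 0.32, interval -1.44 to -0.11; limma adjusted p = 0.360). Of the 421 probes, 16 had every MI value under every sham value (3.8%). Of the 4 MI values, 2 came from sparse arrays, and without those arrays the log2 difference was -0.57. It was -0.83 in A505 to A512 (3 MI and 1 sham) and -0.53 in A535 to A538 (1 of each). With complete-probe scaling, which equalizes the median of the probes listed on every array, it was -0.56 (SE 0.26, adjusted p = 0.376).

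That scaling moved the median log2 difference of the 283 probes at day 1 from 0.12 to -0.017, and it turned the signs of R204 to 0.13 and of R013 to -0.045. Quantile normalization turned R017 to -0.020. Signs of the day 1 differences other than that of R418 also turned for R344, R017, R589 and R204 when a single array was left out. Without sham replicate 6, R344 was at 0.24, R589 at 0.048 and R204 at 0.44; without sham replicate 1, R017 was at -0.24. R017 was also at -0.093 without MI replicate 1 and -0.045 without MI replicate 5, and R204 at 0.23 without MI replicate 4 and 0.15 without MI replicate 6. Sham replicate 6 held the highest day 1 sham value for 7 of the 8 probes, and it listed the most probes of that group, 559. For R237 it held the only such value, and for the rest of the 7 the higher of 2. How often this array was highest over all probes was not taken.

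**Figure D5:**
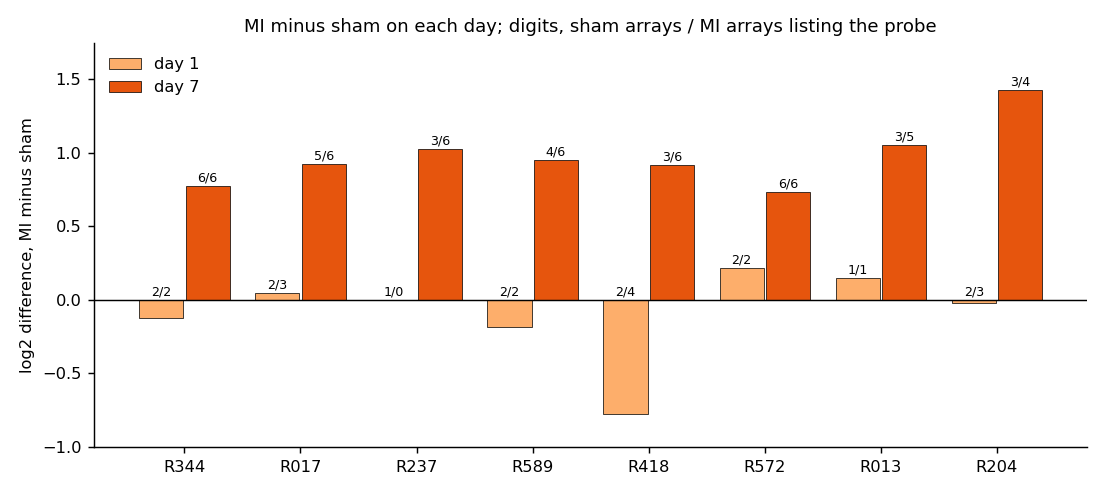
Log2 difference of MI minus sham for the 8 probes at day 1 (light bars) and day 7 (dark bars); the digits give the number of sham and of MI arrays listing the probe. Day 7 bars run from 0.73 to 1.43, and day 1 bars, on 1 to 4 arrays per group, from -0.78 for R418 to 0.22 for R572, with R237 not measured in day 1 MI.

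In MI hearts, the 7 probes with values on both days had a higher mean at day 7 than at day 1, by 1.68-fold to 2.74-fold. This comparison uses the day 7 MI arrays through which the probes were chosen and is described only. R589 differed by 2.74-fold (46.0 ± 2.07 with n = 2 at day 1, SD), R418 by 2.65-fold (57.4 ± 10.2, n = 4) and R344 by 2.47-fold (95.2 ± 2.40, n = 2). R017 differed by 2.27-fold (54.1 ± 13.9, n = 3), R204 by 2.26-fold (51.7 ± 28.9, n = 3) and R572 by 1.68-fold (96.1 ± 0.069, n = 2). R013, with 1 value at day 1, differed by 1.94-fold. The order of these folds depended on the scaling. On the log2 scale, complete-probe scaling took R589 from 1.45 to 1.68, R344 from 1.31 to 1.53 and R572 from 0.75 to 0.97. It took R017 from 1.18 to 1.33 and R013 from 0.95 to 1.21. In the other direction, R418 went from 1.40 to 1.33 and R204 from 1.17 to 1.16. Of the 6 probes with at least 2 values on each day, 5 had every day 7 value above every day 1 value, as had 35 of 485 probes (7.22%); such an order is easier to reach with 2 values, the number that R344, R589 and R572 had at day 1. The exception was R204, whose day 1 replicate 1 at 84.9 lay above its lowest day 7 value, 70.6.

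Only R017, R418 and R204 had 3 values on both days in MI. Of the 354 probes with as many, 9 were called higher (2.54%), R017 and R418 among them, and 1 was called lower. The choice of the probes favours the calls of R017 and R418, and nothing is read from them. Days never shared a set of title numbers, so day and set cannot be told apart by a comparison within sets. With the sets as a random block 1 probe was called, and with A513 to A520 as 1 set 0 were called by limma (16 at an unadjusted p under 0.05). Leaving out the sparse arrays gave 4 higher and 4 lower calls, and the median log2 difference went from 0.22 to -0.060. With complete-probe scaling 50 were called higher and 9 lower.

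In sham hearts the probes showed no common direction between the days. Means of log2 values were higher at day 7 for R344 (0.41), R589 (0.32), R017 (0.31), R572 (0.24) and R013 (0.048) and lower for R237 (-0.44), R418 (-0.29) and R204 (-0.28). None of the 8 had 3 values in each group. The 6 with at least 2 had a median of 0.27, beside 0.24 over the 449 probes with at least 2. Over probes with at least 3 values, the median went from 0.29 to -0.022 without the 6 sparse arrays, which listed no sham value of the 8. R237 had its single day 1 value of 53.5 above all 3 day 7 values, and the values of the other probes overlapped between the days. Each probe had only 1 or 2 sham values at day 1. The share of overlapping probes over all probes is not given, and nothing is read from this. Without day 1 sham replicate 6, R204 turned to 0.19, and without day 7 sham replicate 2, R418 turned to 0.044. R013 turned to -0.035 and -0.018 without day 7 sham replicates 3 and 6.

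Ordered by their means, MI at day 7 stood first for each of the 8 probes, and the order of the other groups differed from probe to probe. For R344 and R589 the order below it was sham at day 7, sham at day 1 and MI at day 1, with neighbours apart by less than the larger SD of the pair. For R017, R572 and R204 the 3 lower groups lay within 1 SD, that of the more variable group, of each other. For R418 sham at day 1 was next at 97.2 ± 4.53 (SD, n = 2), then sham at day 7 at 83.6, then MI at day 1 at 57.4. Sham at day 7 could not be separated from either neighbour in that order, as its 3 values ran from 49.6 to 108. For R013 the 3 lower groups lay between 47.1 and 52.2 in their means, and for R237 the single day 1 value of 53.5 stood between the day 7 groups.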

How the data were processed

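The authors deposited a single table of linear intensities, 1185 probes by 24 arrays. How it was scanned, corrected for background and scaled, and why cells are blank, is not given in the sources. Columns of other series numbered 0, and 0 pairs of arrays were identical. None of the IDs (0) matched the RefSeq gene table. The members and the tests were chosen with earlier results of these data known.

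Log2 intensities, with no constant added and blanks missing, were fitted with 1 mean per group on all 24 arrays (lmFit and eBayes, limma 3.58.1, R 4.3.3). Probe R371 was left out. A probe entered a comparison with at least 3 listed values in each group, and p-values were adjusted over all such probes by the Benjamini-Hochberg method. Means ± SD are of listed intensities; folds are ratios of geometric means. Of the probes beyond the 8, RG433, R272, R642, RG316 and R542 were named for their rank by p-value at day 7. The probes most like the mean profile had the highest Pearson correlation with it over the 12 day 7 arrays. For a single probe of the 8, only the day 7 arrays that listed it were used. In complete-probe scaling each array was shifted so that the 95 probes listed on every array had equal medians. The fit was also run on simulated data with the real blanks and independent normal values. These data held no effect of array or title-number set, so the run says nothing of how such effects change the calls. Other alternatives are in the closing section. The number of arrays limits the precision.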

Additional observations from a re-analysis of the deposited data

Results flagged for a closer look

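Of 13 groups of 4 to 6 values of the 8 probes, 2 had an array that stood apart from the rest by a Dixon outlier test. The nominal rate of that test is about 1 in 20. The share of such groups over all probes was not taken, so nothing is read from the count. In day 7 sham, R017 was 70.2 on replicate 6 against 59.9 to 62.5 on the other 4 listing arrays; without it the fold of R017 was 1.95. In day 7 MI, R237 was 103.5 on replicate 5 against 71.4 to 80.8 on the others.

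R418 changed order between the days: every listed MI value was below every sham value at day 1 (log2 difference -0.78) and above at day 7 (0.92). The day 1 order rests on 2 sham and 4 MI values, and 2 of the MI values came from sparse arrays. The day 1 difference did not pass the test over all probes (limma adjusted p = 0.360, 2 listed values per group). At day 1, 16 of 421 probes (3.8%) had every MI value below every sham value. The difference between the days was not tested, because the day 7 values chose the probe.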

How the results depend on the processing

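Over the alternatives the day 7 differences of the 8 probes ran from 0.21 to 1.74 on the log2 scale; their choice favours a positive sign, and an alternative that drops arrays not listing a probe leaves it unchanged. At day 1, 13 of 133 alternative values changed sign. Counts over all probes depended on the processing. At day 1, 0 probes were called as deposited, 2 with 16 added, with 5 values per group, with an intensity trend or without the dimmest 25%, 3 after quantile normalization, 6 with the title-number sets as a block, 8 with A513 to A520 as 1 set in that block, 10 with complete-probe scaling and 9 with that scaling and 2 values per group, a setting chosen after seeing the data (as were A513 to A520 as 1 set, values within sets and R204 without its 100); without each array, 0 to 11. At day 7 the 7 became 4 with 5 values per group or quantile normalization, 11 with complete-probe scaling and 14 with the 2 groups alone. The count was 17 with the sets as a block, 16 with A513 to A520 as 1 set and 13 without the sparse arrays. Without each array it was 2 to 8. It was 2 without MI replicate 5 or sham replicate 4 or 5, and 3 without MI replicate 3 or 4. From day 1 to day 7 in MI the 10 became 2 with 5 values per group, 59 with complete-probe scaling, 16 with the trend or the 2 groups alone, 19 after quantile normalization, 1 with the sets as a block and 0 with A513 to A520 as 1 set; without each array, 2 to 21. In sham the 1 became 3 with 2 values per group, 24 with complete-probe scaling and 0 with 5 values per group, the 2 groups alone, the sets as a block (also with A513 to A520 as 1 set) or no sparse arrays; without each array, 0 to 45. No cause was tested. No paired analysis was possible because the labels give no replicate numbers shared between groups; the title-number sets served only as a block. Signal over background is not in the table, so what limits dim probes is unknown.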
